A study of Mus musculus with 4 samples.

Results

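RAS proteins are small GTPases that switch on the RAF-MEK-ERK kinase cascade, also called the MAPK pathway. Cells that receive this signal transcribe genes whose products damp it again, which makes those genes a common readout of pathway activity. Described here are 9 of the 31055 features of a single-cell RNA-seq matrix from mouse lung tumors, taken by gene symbol. They comprise 2 RAS genes (Hras, Nras), 4 Sprouty and Spred genes (Spry1, Spry2, Spry4, Spred1), 2 dual-specificity phosphatase genes (Dusp4, Dusp6) and the transcription factor gene Etv4. Sprouty and Spred proteins restrain RAS and RAF downstream of growth factor receptors, DUSP4 and DUSP6 remove phosphate from ERK, and ETV4 is an ETS family factor that ERK signaling induces. In the lung this pathway is known for its part in epithelial branching, in alveolar type II cell growth and in adenocarcinoma.

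The study asked how restoring the tumor suppressor Lkb1 alters established lung tumors. The 4 female mice all carried a Cre-activated oncogenic RAS allele, Lkb1XTR/XTR, in which Cre flips a gene trap that disrupts Lkb1, and Rosa26LSL-tdTomato, a red fluorescent reporter that Cre switches on. In the 2 Restored mice Rosa26 also held FLPo-ERT2, a tamoxifen-dependent recombinase that removes the trap, and the 2 Non-Restored mice lacked it. Every mouse received Lenti-Cre through the trachea, grew tumors for 16 weeks and was given tamoxifen in 4 mg doses for 2 weeks before viable cells were sorted from microdissected tumors.

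The matrix pools these mice without assigning cells to them, so no value could be given for Restored against Non-Restored mice, and the pool was treated as 1 sample without replicates. Differences below therefore come with sizes and counting intervals but no test, and a difference between cell classes cannot be told apart from unequal shares of the mice in those classes. Of 20351 cells, 19488 passed the quality limits (median 1949.5 UMIs, where a UMI tags 1 captured RNA molecule), and 16445 were placed in a class by marker genes. Classes are called "-like" because only their RNA was seen. Tumor epithelial-like cells numbered 885 (median 3796 UMIs) and held 8130 CPM (a gene's UMIs per 1000000 UMIs of the class) summed over the 11 epithelial markers. The red reporter reached 5700 CPM in them, against 70.3 to 219 CPM in 10 of the 11 non-tumor classes. The exception was the alveolar macrophage-like class at 2677 CPM, so the reporter did not mark tumor cells alone. Non-tumor cells numbered 15548.

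Promoter sequences in RefSeq (GRCm38.p6) covered 6 of the 9 genes, with none for Spry4, Dusp4 and Etv4. The 250 bases before the start are shown 5′ to 3′ on the gene's strand for the 3 Sprouty and Spred genes covered, which are the ones higher in tumor epithelium, and for the phosphatase gene Dusp6. Capitals mark CGGAAG, a core that ETS family factors bind, and GGGCGG, the box of Sp and Klf factors, searched on both strands, so that a match on the opposite strand reads CTTCCG or CCGCCC.
Spry1 (chr3:37639697-37639946, plus strand): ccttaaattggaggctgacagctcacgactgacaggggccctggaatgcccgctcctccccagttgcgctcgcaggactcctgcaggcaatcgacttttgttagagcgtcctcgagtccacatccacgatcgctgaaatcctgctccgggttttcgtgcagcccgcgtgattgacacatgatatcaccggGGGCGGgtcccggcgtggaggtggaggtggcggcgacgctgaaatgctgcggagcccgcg
Spry2 (chr14:105896820-105897069, minus strand): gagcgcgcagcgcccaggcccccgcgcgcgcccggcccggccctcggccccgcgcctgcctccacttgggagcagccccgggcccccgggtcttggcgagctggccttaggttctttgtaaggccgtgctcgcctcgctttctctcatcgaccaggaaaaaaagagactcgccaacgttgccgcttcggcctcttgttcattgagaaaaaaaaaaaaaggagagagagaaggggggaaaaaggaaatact
Spred1 (chr2:117120821-117121070, plus strand): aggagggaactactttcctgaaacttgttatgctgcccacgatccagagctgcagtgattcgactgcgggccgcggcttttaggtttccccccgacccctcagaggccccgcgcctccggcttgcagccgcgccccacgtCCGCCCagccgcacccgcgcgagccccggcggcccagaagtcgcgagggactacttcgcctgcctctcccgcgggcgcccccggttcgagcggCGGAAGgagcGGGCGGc
Dusp6 (chr10:99262981-99263230, plus strand): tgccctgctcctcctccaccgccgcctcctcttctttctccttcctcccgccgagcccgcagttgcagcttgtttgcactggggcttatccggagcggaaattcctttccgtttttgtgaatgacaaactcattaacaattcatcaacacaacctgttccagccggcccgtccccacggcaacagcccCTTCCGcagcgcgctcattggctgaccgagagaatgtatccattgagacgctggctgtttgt

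CGGAAG was found in Spred1, 12 to 17 bases before the start, and in Dusp6 on the opposite strand, 57 to 62 bases before it. Among 32851 promoters of the same length in RefSeq, 13.6% held it. GGGCGG was more widespread, present in 32.7% of all promoters, 3 times in Hras, 2 times each in Nras (overlapping by a base) and Spred1, and once in Spry1. Spry2 held neither motif, although its window was as rich in G and C as that of Spry1 (62.4% in both, against a median of 52.4% over all promoters). The RefSeq start of Spred1 lies upstream of its GENCODE start, and the Spry1 window lies wholly within an exon of Gm42922.

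All 9 symbols occurred once in the matrix. Hras lies on chromosome 7 (mm10 141189105 to 141194005, minus strand) and Nras on chromosome 3 (103058285 to 103067914, plus strand). Spry1 lies on chromosome 3 (37639947 to 37644598, plus strand), Spry2 on chromosome 14 (105891947 to 105896819, minus strand), Spry4 on chromosome 18 (38586247 to 38601415, minus strand) and Spred1 on chromosome 2 (117121374 to 117182279, plus strand). Dusp4 lies on chromosome 8 (34807297 to 34819894, plus strand), Dusp6 on chromosome 10 (99263231 to 99267489, plus strand) and Etv4 on chromosome 11 (101769742 to 101785371, minus strand). In GENCODE vM21 no annotated gene overlapped 7 of the 9. Spry1 shares its first part with Gm42922 on the opposite strand, and 2 small RNA genes lie in Spry4 on the opposite strand, none of which is a feature of the matrix.

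To ask which members mark the tumor epithelium, their levels in these cells were set against the 11 non-tumor classes together. Spry1, Spry2, Spred1 and Etv4 had the largest excesses and Hras a smaller one, while Dusp4 and Dusp6 were less than 2-fold higher and Nras and Spry4 were lower. In all, 5 of 9 members were at least 2-fold higher in tumor epithelial-like cells, where 16.3% of all 14377 genes with 20 or more UMIs were, and 0 of 9 were at least 2-fold lower, where 30.5% of genes were. With each non-tumor class weighted equally, 7 members were at least 2-fold higher than the median class, since Spry4, Dusp4 and Dusp6 joined and Etv4, at 0 in that class, had no value. The median log2 ratio was 1.81 over the members and -0.16 over all genes.

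**Figure D1:**
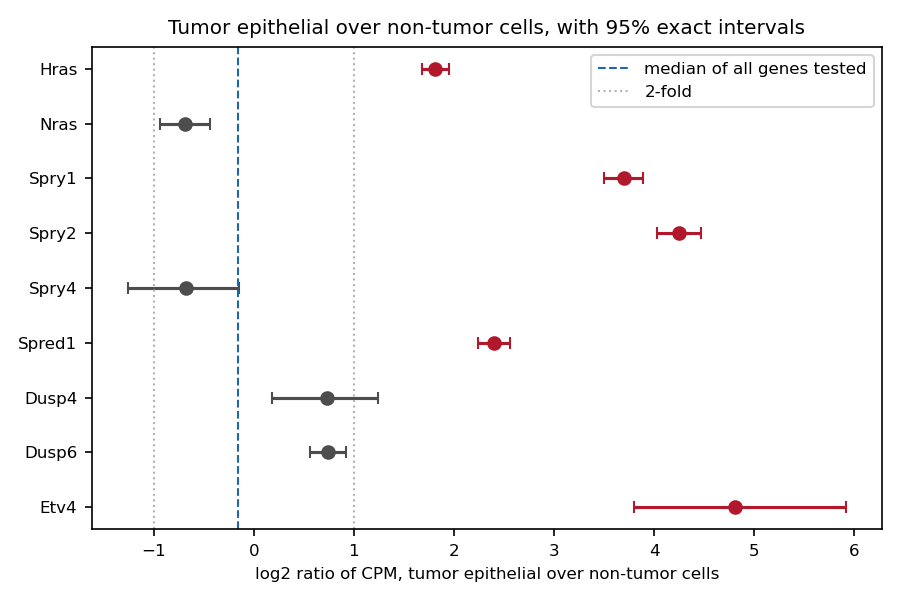
Log2 ratio of the level in tumor epithelial-like cells over that in non-tumor cells for each member (points, x axis) with its exact 95% interval (bars, counting error only). Hras, Spry1, Spry2, Spred1 and Etv4 (red) lie beyond the dotted 2-fold line at 1, while Nras and Spry4 lie below 0 and below the dashed median of all genes at -0.16.

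The RAS genes, which encode the switch itself, went opposite ways. Hras was at 165 CPM in tumor epithelial-like cells (95% Poisson interval 152 to 179, 596 UMIs) and at 47.0 CPM in non-tumor cells, a log2 ratio of 1.81 (exact interval 1.68 to 1.95). Nras was at 39.1 CPM (32.9 to 46.1) against 62.9 CPM, a log2 ratio of -0.69 (-0.94 to -0.44). With each cell thinned to 1000 UMIs the Nras ratio was -0.46 (-0.97 to 0.007), an interval that included 0. Across the 12 classes tumor epithelium ranked first for Hras and last for Nras.

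That rank rests on unequal gaps. For Hras the next class, endothelial-like cells, followed closely at 129 CPM, with a log2 ratio between them of 0.36 (0.18 to 0.53). Endothelial-like cells in turn stood above NK-like cells at 72.4 CPM, and from there down to B or plasma-like cells at 23.6 CPM no neighbours in the order differed beyond their counting intervals. Nras levels were flatter. Endothelial-like cells (94.0 CPM) and alveolar macrophage-like cells (84.7 CPM) led without differing from each other, and the other 10 classes spanned 39.1 to 58.2 CPM, each overlapping its neighbour. Tumor epithelium at 39.1 CPM could not be separated from T-like cells at 46.8 CPM.

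**Figure D2:**
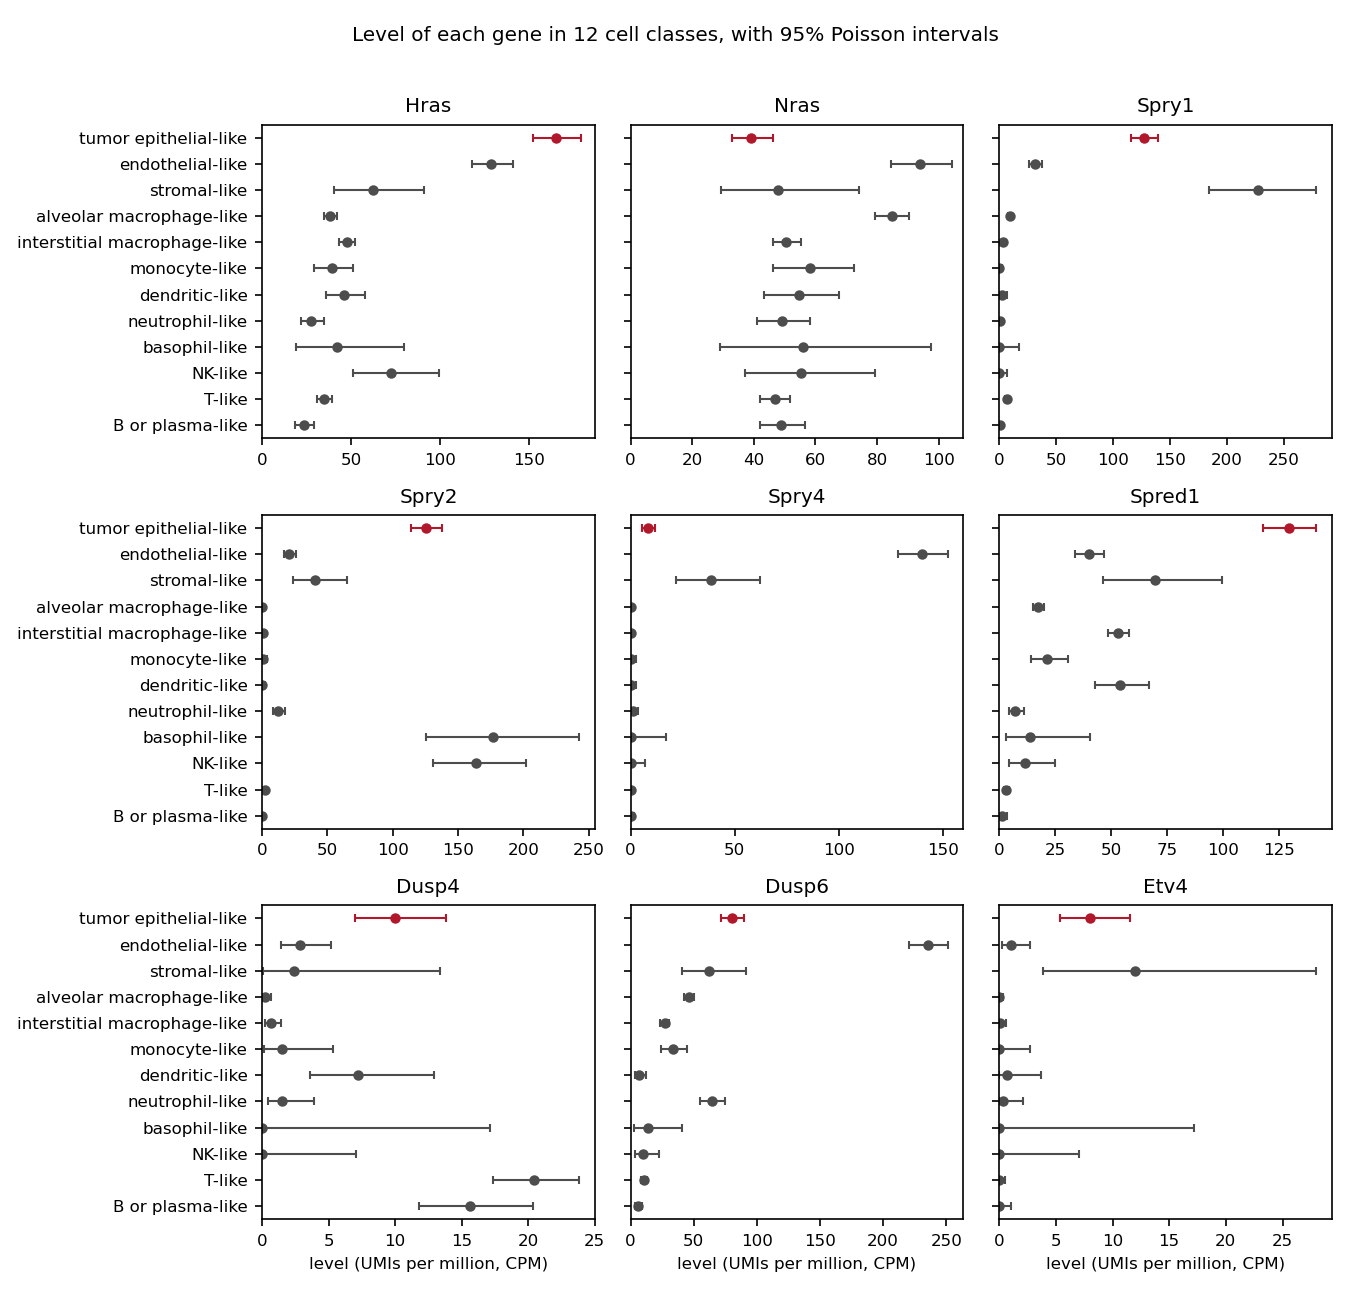
Level of each member (x axis, CPM) in the 12 cell classes, with 95% Poisson intervals and tumor epithelium in red. The scales differ between panels. Spry4 and Dusp6 peak in endothelial-like cells (140 and 235 CPM), Spry1 in stromal-like cells (228 CPM), Spry2 in basophil-like and NK-like cells (177 and 164 CPM) and Hras and Spred1 in tumor epithelium (165 and 130 CPM).

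Sprouty and Spred genes divided into those abundant in tumor epithelium and Spry4, which was low there at 8.32 CPM. Spry1, the family member known for restraining receptor signaling in developing kidney, was at 127 CPM in tumor epithelial-like cells (116 to 139) and at 9.83 CPM in non-tumor cells, a log2 ratio of 3.69 (3.50 to 3.89). Spry2, known for restraining FGF signaling in lung branching, was at 126 CPM (114 to 138) against 6.63 CPM, a log2 ratio of 4.24 (4.02 to 4.46). Spred1, which brings neurofibromin to RAS, was at 130 CPM (118 to 142) against 24.5 CPM, a log2 ratio of 2.40 (2.24 to 2.56). The non-tumor levels of all 3 were averages over very unequal classes.

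Spry1 was highest outside the epithelium, at 228 CPM in stromal-like cells (184 to 278, 95 UMIs in 121 cells), 1.79 times the tumor level. Endothelial-like cells followed at 31.5 CPM. It was low or undetected in the immune classes, from 9.52 CPM in alveolar macrophage-like cells to 0 UMIs in monocyte-like, NK-like and basophil-like cells. These zeros allow up to 2.21, 5.72 and 13.96 CPM (3 UMIs), so only the basophil-like class was too shallow to place below alveolar macrophage-like cells.

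Spry2 showed a different set of classes. Basophil-like cells (177 CPM, 38 UMIs in 127 cells) and NK-like cells (164 CPM, 86 UMIs in 414 cells) were at or above the tumor level, with log2 ratios over tumor epithelium of 0.49 (-0.02 to 0.97) and 0.38 (0.03 to 0.72). T-like cells, the lymphocytes closest to NK cells, were at 2.04 CPM, a log2 ratio of NK-like over T-like cells of 6.33 (5.55 to 7.20). With each cell thinned to 1000 UMIs, a Spry2 UMI was found in 12.5% of 854 tumor epithelial-like cells, 15.2% of 270 NK-like cells and 14.2% of 120 basophil-like cells, but in 0.154% of 3891 T-like cells and 0.0505% of 1982 alveolar macrophage-like cells. Unthinned, these 5 classes had shares of 36.7%, 17.9%, 23.6%, 0.331% and 0.0978%, with a median of 3796, 1130.5, 1544, 1626 and 5428 UMIs a cell. The deepest of these classes thus had the lowest share. The 11 epithelial markers summed to 5.72 CPM in NK-like and 275 CPM in basophil-like cells, against 8130 CPM in tumor epithelium, and the part of epithelial RNA in the Spry2 values was not tested. Basophil-like cells also held 8457 CPM of neutrophil markers beside 9718 CPM of their own, while Spry2 itself was at 12.2 CPM in neutrophil-like cells. Of the 10 neutrophil markers, 5 had a UMI in basophil-like cells. The neutrophil list includes Hdc, which was also among the top 10 genes of the basophil-like class against the other gated cells.

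Spry4 behaved as an endothelial gene in these tumors. Endothelial-like cells held 532 of its 588 UMIs and a level of 140 CPM (128 to 152), against 38.3 CPM in stromal-like cells and 8.32 CPM in tumor epithelium (5.61 to 11.9, 30 UMIs). The log2 ratio of endothelial-like over tumor epithelial-like cells was 4.07 (3.54 to 4.65). Monocyte-like, dendritic-like, NK-like, T-like and basophil-like cells had 0 UMIs. Set against all non-tumor cells the tumor level was lower, with a log2 ratio of -0.68 (-1.26 to -0.15), but only endothelial-like and stromal-like cells stood above it. The zero of the basophil-like class allows up to 13.96 CPM and so could not be placed, and against the median non-tumor class (0.218 CPM) the log2 ratio of the tumor level was 5.25, the opposite direction. The 10 endothelial markers summed to 76.0 CPM in tumor epithelial-like cells (8 of 10 with a UMI), which is 0.879% of their level in endothelial-like cells. The same share of endothelial Spry4 would be 1.23 CPM, although the marker rule itself limits such UMIs, and the part of endothelial RNA in the tumor value was not tested.

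Spred1 was spread more evenly. Behind tumor epithelium came stromal-like (69.5 CPM), dendritic-like (53.9 CPM) and interstitial macrophage-like cells (53.3 CPM), which did not differ from each other as neighbours. Interstitial macrophage-like cells stood above alveolar macrophage-like cells (17.3 CPM) by a log2 ratio of 1.62 (1.38 to 1.87). The lowest levels were 7.22 CPM in neutrophil-like, 3.06 CPM in T-like and 1.42 CPM in B or plasma-like cells.

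The ERK phosphatase genes, Dusp6 and Dusp4, were both less than 2-fold higher in tumor epithelium than in pooled non-tumor cells. Against the median non-tumor class, with each class weighted equally, their log2 ratios were 1.58 (Dusp6) and 2.72 (Dusp4), both past 2-fold. Dusp6, whose product acts on ERK in the cytoplasm, was at 80.2 CPM in tumor epithelium (71.2 to 89.9) against 48.0 CPM in non-tumor cells, a log2 ratio of 0.74 (0.56 to 0.92). Its peak was in endothelial-like cells, at 235 CPM (220 to 251), 2.94 times the tumor level. Neutrophil-like cells at 64.6 CPM came next after tumor epithelium, and dendritic-like (6.57 CPM) and B or plasma-like cells (5.68 CPM) last.

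Dusp4, whose product acts on ERK in the nucleus, was at 9.98 CPM in tumor epithelium (6.99 to 13.8, 36 UMIs) against 6.01 CPM in non-tumor cells, a log2 ratio of 0.73 (0.19 to 1.24). T-like cells were highest at 20.4 CPM, followed by B or plasma-like cells at 15.6 CPM, a gap within counting error. Macrophage-like classes were close to 0, at 0.183 CPM (alveolar) and 0.655 CPM (interstitial).

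Etv4 was rare everywhere but lay almost entirely outside the immune classes. Tumor epithelial-like cells held 29 of its 41 UMIs, at 8.04 CPM (5.39 to 11.6), against 12 UMIs and 0.286 CPM in non-tumor cells, a log2 ratio of 4.81 (3.80 to 5.92). Stromal-like cells were at 11.98 CPM on 5 UMIs, which could not be separated from the tumor level. The 9 immune classes together held 3 UMIs, and alveolar macrophage-like cells had 0 UMIs among 10922555.

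Within the tumor epithelium, 3 states were compared to ask whether the members follow the passage from alveolar type II (ATII, surfactant-making) to alveolar type I (ATI, gas-exchanging) gene programs. The gate placed 551 cells as ATII-like, 186 as ATII-like with Hopx (an ATI gene) and 129 as ATI-like, and 19 fell in none. Summed ATII markers were 157207, 109510 and 3591 CPM in the 3 states and summed ATI markers 1923, 5359 and 10294 CPM. The reporter was at 5575, 6016 and 6279 CPM, so it was high in all 3. Compared with ATII-like cells, 0 of 9 members were at least 2-fold higher in ATI-like cells, where 14.1% of 8395 genes were, and 1 of 9 was at least 2-fold lower, where 12.4% were. Both counts lie near those shares of all genes. Hras, Dusp6 and Spred1 differed by less than 2-fold with intervals that left out 0.

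**Figure D3:**
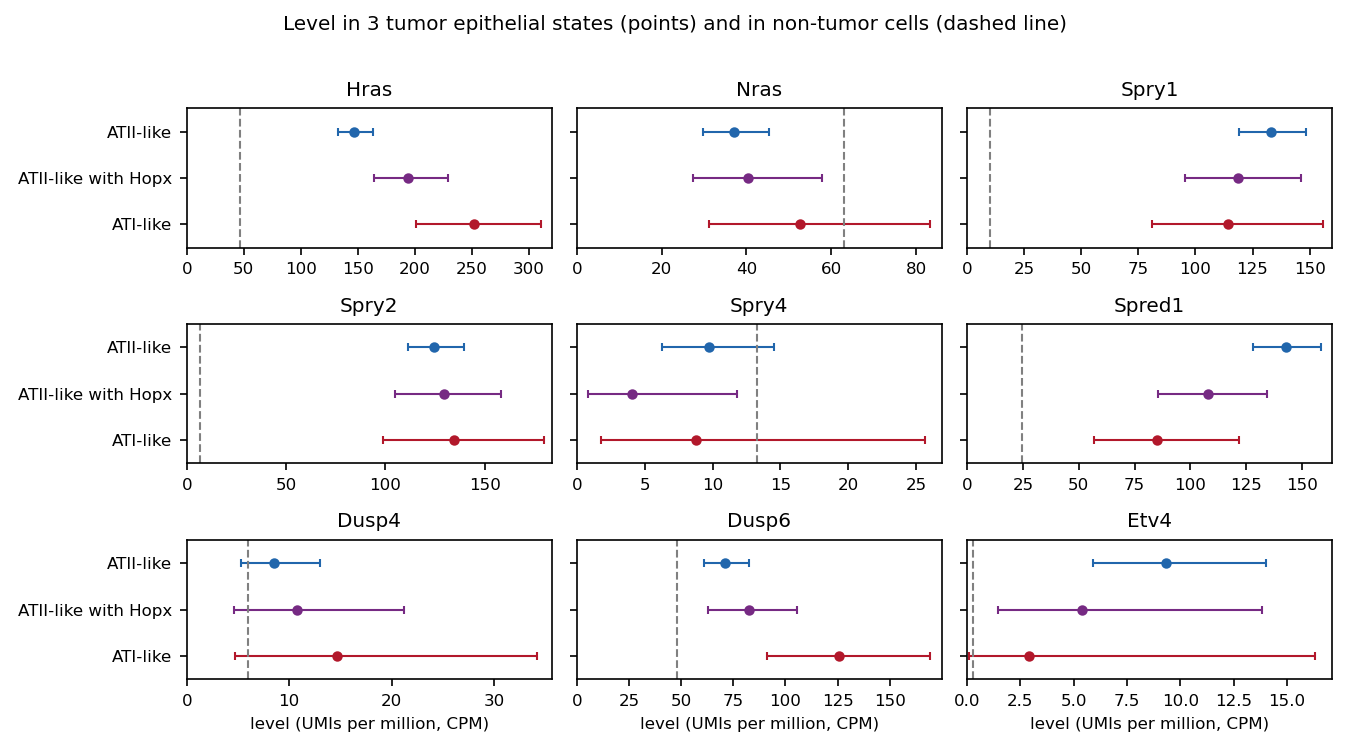
Level of each member (x axis, CPM, 95% Poisson intervals) in ATII-like, ATII-like with Hopx and ATI-like cells, beside the level in all non-tumor cells (dashed line). Hras runs from 147 to 194 to 252 CPM and Spred1 from 143 to 108 to 84.9 CPM, while Spry1 and Spry2 intervals overlap across the states.

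Hras stood at 147 CPM in ATII-like cells (132 to 163), 194 CPM in those with Hopx (164 to 229) and 252 CPM in ATI-like cells (201 to 311). The log2 ratio of ATI-like over ATII-like cells was 0.78 (0.42 to 1.12), above the median of 0.19 over all genes. Dusp6 had the same order, with 71.1, 82.3 and 126 CPM and a log2 ratio of 0.82 (0.31 to 1.31). Spred1 ran the other way, with 143, 108 and 84.9 CPM and a log2 ratio of -0.75 (-1.35 to -0.20). When sub-clusters replaced the gate, the Hras ratio was 0.37 (0.03 to 0.71) and that of Spred1 -0.08 (-0.55 to 0.39). Both values were smaller than with the gate, and the Spred1 interval spanned 0. The Hras interval spanned 0.19, the median of all genes between the gated states. No such median was computed for the sub-clusters. The ATI-like sub-cluster was a different set of cells, with 116 of its 252 cells in the ATI-like gate and 48494 CPM of summed ATII markers.

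The Sprouty genes were nearly level across the states. Spry1 was at 133, 119 and 114 CPM and Spry2 at 125, 130 and 135 CPM, with ATI-like over ATII-like log2 ratios of -0.22 (-0.74 to 0.26) and 0.11 (-0.37 to 0.56). All 3 states lay far above the pooled non-tumor levels of both genes (9.83 and 6.63 CPM). Single non-tumor classes were higher than the states, with Spry1 at 228 CPM in stromal-like cells. Spry2 was at 177 CPM in basophil-like and 164 CPM in NK-like cells. Nras was at 37.0, 40.5 and 52.7 CPM, a log2 ratio of 0.51 (-0.31 to 1.25), which leaves its direction undetermined. Spry4 (24, 3 and 3 UMIs), Dusp4 (21, 8 and 5 UMIs) and Etv4 (23, 4 and 1 UMIs) were too sparse to order. Etv4 was the member past the 2-fold line, with 1 UMI in ATI-like cells, and its interval ran from -7.04 to 0.95.

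Summed over the 7 feedback genes, the states were at 499, 459 and 486 CPM, and their intervals overlapped. The same sum was 489 CPM in all tumor epithelial-like cells (466 to 512), 471 CPM in endothelial-like (450 to 494) and 453 CPM in stromal-like cells (391 to 522), again overlapping. Basophil-like (205 CPM) and NK-like cells (185 CPM) followed, and the other classes ranged from 87.8 CPM in neutrophil-like to 23.9 CPM in B or plasma-like cells. The make-up of the sum differed, since Spry1, Spry2 and Spred1 led in the epithelium, Dusp6 and Spry4 in endothelial-like cells, and Spry1 in stromal-like cells.

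Several members also differed in CPM between sub-gates of the non-tumor classes, and these contrasts were not repeated under other settings. Dusp4 was at 75.7 CPM in Foxp3+ T-like cells (55.8 to 100.3, 48 UMIs in 267 cells), 29.4 CPM in CD4 T-like cells without Foxp3, 28.1 CPM in Tcrg-C1+ T-like cells and 7.57 CPM in CD8 T-like cells. Foxp3, the master factor of regulatory T cells, was used to draw the first of these. The log2 ratio of Foxp3+ over CD4 T-like cells was 1.37 (0.71 to 2.04), and that over tumor epithelium was 2.92 (2.27 to 3.59). Dusp4 was thus higher in this T cell subset than in tumor cells, CD4 T-like or CD8 T-like cells.

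**Figure D4:**
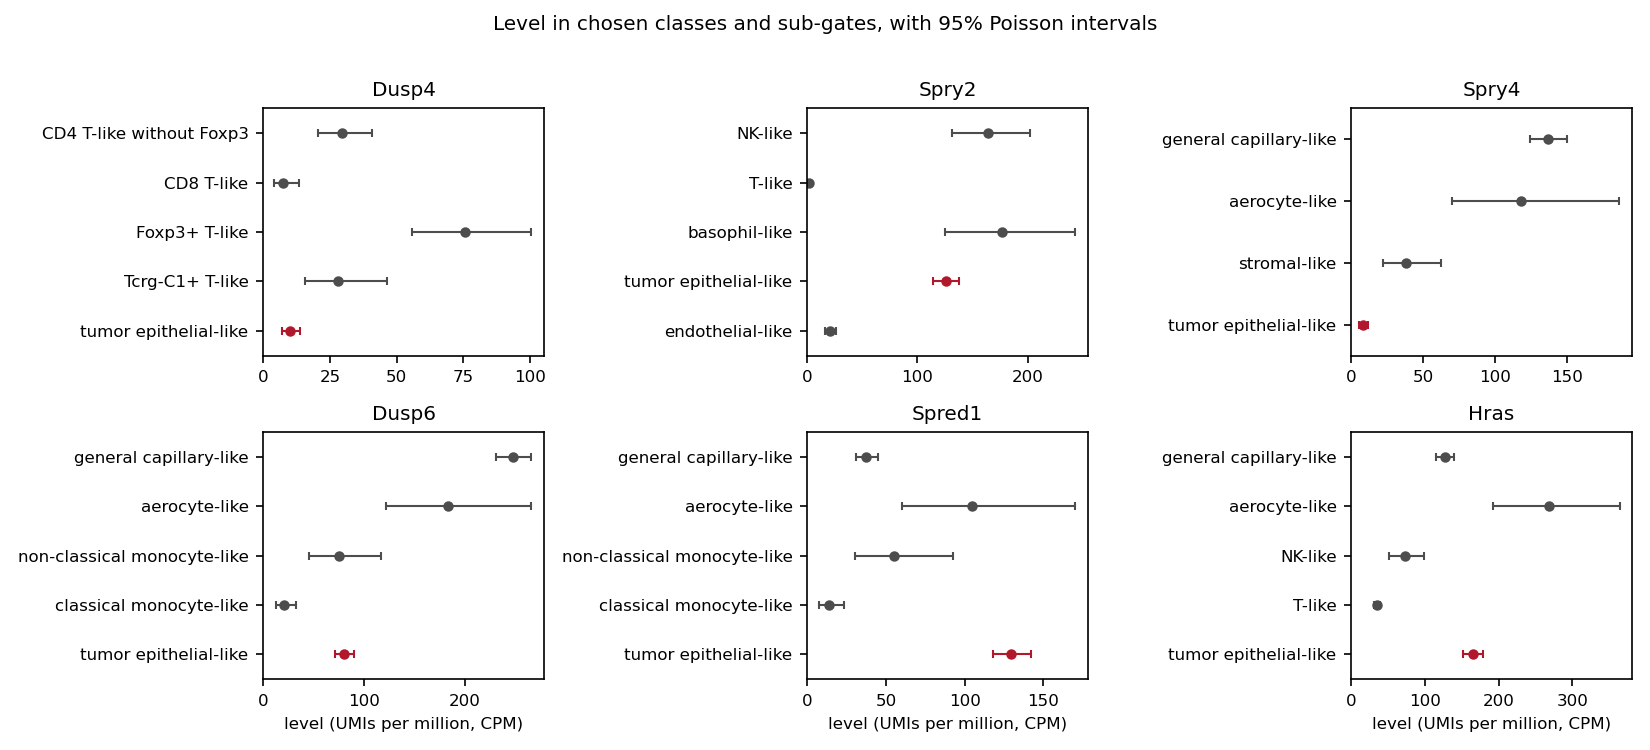
Level (x axis, CPM, 95% Poisson intervals) of 6 members in chosen classes and sub-gates, with tumor epithelium in red. Dusp4 peaks in Foxp3+ T-like cells at 75.7 CPM, Spry2 in basophil-like and NK-like cells, and Hras and Spred1 are higher in aerocyte-like than in general capillary-like cells.

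Among endothelial-like cells, 71 resembled aerocytes, the large capillary cells that line alveoli, and 1527 general capillary cells. Hras was at 268 CPM in the former (193 to 364) and at 127 CPM in the latter, a log2 ratio of 1.08 (0.58 to 1.55). Spred1 was at 105 CPM on 16 UMIs against 37.4 CPM, a log2 ratio of 1.49 (0.64 to 2.25). Spry4 (118 and 137 CPM) and Dusp6 (183 and 248 CPM) had overlapping intervals. The Hras level of aerocyte-like cells stood above that of tumor epithelium as a whole, and their intervals did not overlap. Its interval did overlap that of the ATI-like tumor cells, which were at 252 CPM (201 to 311).

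Monocyte-like cells divided for Dusp6 and Spred1. In non-classical monocyte-like cells (123 cells) Dusp6 was at 74.9 CPM and Spred1 at 55.2 CPM. Classical monocyte-like cells (311 cells) were lower, at 21.0 and 14.0 CPM, and the log2 ratios were 1.83 (0.86 to 2.80) and 1.98 (0.80 to 3.16). These rest on 19 and 14 UMIs in the non-classical cells.

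Alveolar macrophage-like cells carried the Cre reporter without an epithelial program, and were divided into 1745 reporter-high (3064 CPM) and 187 reporter-low cells (123 CPM). Of the 9 members 5 had 20 or more UMIs there, and 0 of 5 were at least 2-fold higher or lower, where 5.16% and 2.78% of 10124 genes were. Hras was at 37.6 and 40.7 CPM in reporter-high and reporter-low cells, with a log2 ratio of -0.11 (-0.60 to 0.41). Nras was at 87.0 and 68.5 CPM, with a log2 ratio of 0.35 (-0.02 to 0.74). Dusp6 was at 48.3 and 33.2 CPM, with a log2 ratio of 0.54 (0.01 to 1.12), and this ratio was -0.047 (-0.38 to 0.30) when the reporter was read after thinning each cell to 1000 UMIs. Spry1 and Spred1 rested on 7 and 12 UMIs in reporter-low cells, with intervals that included 0. Spry2 had 1 UMI in each group.

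The wider pathway was read from 7 gene lists, beside the 16.3% of all genes that were at least 2-fold higher in tumor epithelium, the 30.5% that were lower and the median of -0.16. Other feedback genes had 6 of 16 measured genes at least 2-fold higher in tumor epithelium and 4 lower, with a median log2 ratio of 0.34. Other ERK target genes had 10 of 20 higher and 5 lower, with a median of 0.72. Their counts of lower genes lie near the share of all genes. Errfi1, which blocks EGFR, was at 229 CPM in tumor epithelium and 27.7 CPM in non-tumor cells, a log2 ratio of 3.05 (2.92 to 3.18). Dusp9 followed with 2.19 on 9 UMIs. At the other end Dusp2 (1.94 and 71.9 CPM) and Dusp5 (16.4 and 184 CPM) were lower, with log2 ratios of -5.21 and -3.49. Their highest classes were NK-like (328 CPM) and basophil-like cells (1852 CPM). Both encode nuclear phosphatases.

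Among the other ERK targets the largest ratios were those of Etv5, the closest relative of Etv4, at 132 and 6.16 CPM (log2 ratio 4.42, 4.20 to 4.65) and of Areg, an EGFR ligand, at 720 and 43.2 CPM (4.06, 3.97 to 4.15). Emp1 (-2.37) and Myc (-1.89) were lowest. Between states Etv5 was lower in ATI-like cells, where it had 3 UMIs, against 382 in the ATII-like state (log2 ratio -4.14, -6.43 to -2.59). Etv1 had 59 UMIs (24.0 CPM) and 0 UMIs, at least 2.73-fold lower in ATI-like cells on a floor of 3 UMIs. Emp1 had the highest ratio of this list, at 82.0 against 12.6 CPM (2.70, 1.91 to 3.49), followed by Elk3 at 1.66.

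For the upstream components the list medians ranged from -0.81 (RAS relatives) to -0.16 (kinases), the latter equal to the median of all genes, and the shares of all genes were again 16.3% higher and 30.5% lower. RAS relatives had 0 of 9 higher and 4 lower, with Rala (0.99) and Rheb (-0.13) at the top and Rras2 (-1.58) and Ralb (-1.52) at the bottom. Exchange factors, which load RAS with GTP, and adaptors together had 2 of 10 higher (the adaptors Gab1 at 1.26 and Shc1 at 1.03) and 5 lower. Of these Rasgrp3 was at 1.11 and 30.4 CPM, and Rasgrp4 had 0 UMIs in tumor epithelium, at least 16.8-fold below the 14.0 CPM of non-tumor cells. GTPase-activating proteins, which switch RAS off, had 1 of 8 higher, Dab2ip at 49.1 and 8.61 CPM (2.51, 2.24 to 2.77), and 3 lower, led by Rasal3 (-3.83) and Rasa3 (-2.96). Nf1, the GTPase-activating partner of Spred1, was at 22.7 and 18.8 CPM, a log2 ratio of 0.28 (-0.07 to 0.61). Kinases and scaffolds of the RAF-MEK-ERK cascade had 0 of 11 higher and 2 lower (Ksr1 at -4.06, Rps6ka1 at -1.42), with Braf (0.39) and Map2k2 (0.36) at the top.

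**Figure D5:**
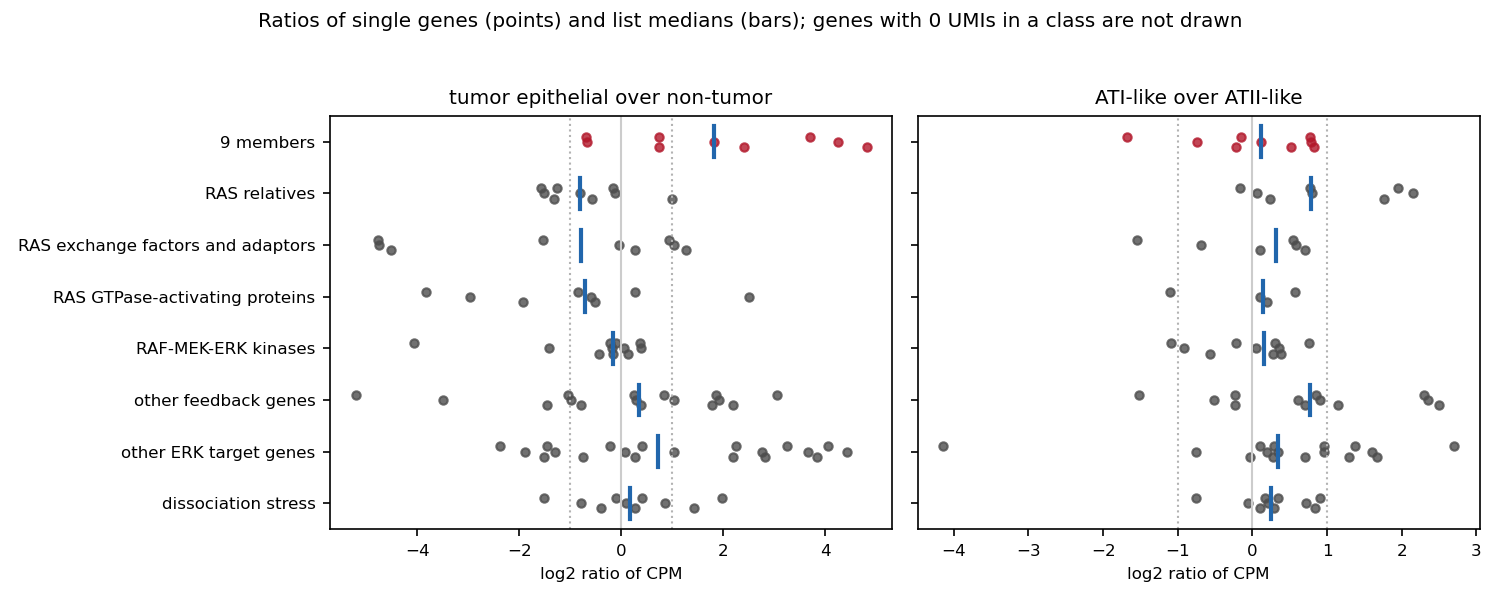
Log2 ratios of single genes (points, x axis) in the 9 members and 7 lists, with each list's median (blue bar) and dotted 2-fold lines, for tumor epithelial-like over non-tumor cells (left) and ATI-like over ATII-like cells (right). On the left the members' median is 1.81 and that of the RAF-MEK-ERK kinases -0.16.

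Beside 14.1% of all genes higher and 12.4% lower in ATI-like over ATII-like cells, the lists had 3 of 8 (RAS relatives), 4 of 12 (other feedback genes) and 5 of 17 (other ERK targets) genes at least 2-fold higher, and 0, 1 and 2 lower. Rras2 (2.15) and Rit1 (1.95) led the RAS relatives, and Rap1b (0.06) and Rala (-0.16) were last. Dusp14 (2.50) and Dusp7 (2.35) led the feedback genes, on 11 and 12 UMIs in ATI-like cells, and Spred2 (-1.52) and Errfi1 (-0.52) were last. Spred2, the sister gene of Spred1, was at 14.6 and 41.8 CPM, the former on few UMIs. This was the same direction as Spred1 with the gate. The remaining lists had 0 higher (0 of 6 exchange factors and adaptors, 0 of 4 GTPase-activating proteins, 0 of 10 kinases and 0 of 10 stress genes) and, among exchange factors, GTPase-activating proteins and kinases, 1 lower each (Shc1 at -1.55, Nf1 at -1.10 on 4 UMIs, Rps6ka3 at -1.10). The other ends of these lists lay within 2-fold, from Gab1 (0.70), Ptpn11 (0.58), Rasa1 (0.57), Shoc2 (0.76) and Mapk3 (0.39) to Sos2 (-0.69) and Map2k1 (-0.92). In reporter-high over reporter-low macrophages 4 list genes were at least 2-fold higher, Rasgrp2 (1.36) of 8 exchange factors and adaptors, Dusp7 (1.06) of 11 other feedback genes, and Etv5 (1.20) and Ereg (1.01) of 15 other ERK targets, and 0 were lower. The shares of all genes were 5.16% higher and 2.78% lower. With so few genes in each list, no excess over these shares is read from the counts.

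Genes of the stress response to tissue dissociation, several of which ERK also induces, were followed beside these values. Their sum was 6301 CPM in tumor epithelium, 10830 CPM in endothelial-like, 11057 CPM in neutrophil-like, 12590 CPM in stromal-like and 13916 CPM in basophil-like cells, and 2758 to 3419 CPM in lymphoid and 3400 CPM in dendritic-like cells. Of the 10 genes, Hspa1b (1.98) and Hspa1a (1.43) were at least 2-fold higher in tumor epithelium and Junb (-1.52) lower. Between states 0 of 10 passed 2-fold, with Dusp1 (0.91) and Atf3 (0.84) highest and Egr1 (-0.75) lowest in ATI-like cells. The sum itself was 6364, 5655 and 7262 CPM in ATII-like, ATII-like with Hopx and ATI-like cells. The part of this response in the members' values was not tested.

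Over the 12 classes, the genes whose log2(CPM + 10) followed each member most closely were named among 9707 genes with 20 CPM or more in a class. Correlations are given as a description of 12 points that share libraries and free RNA. Spry4 was followed by Cdh13, Uaca and Cdc42ep1 (Pearson r 0.996, 0.994 and 0.992), all highest in endothelial-like cells. Spry1 was followed by Tead1, B9d1 and Mapk8ip1 (0.982, 0.980 and 0.977), highest in stromal-like cells, and Etv4 by Gstt1, Il34 and Fzd2 (0.995, 0.994 and 0.993), also stromal. Etv4 itself had 41 UMIs, found in 6 of the 12 classes. Its peak of 11.98 CPM, on 5 UMIs in stromal-like cells, lay under the 20 CPM asked of the other genes. The Etv4 correlations thus rest on few counts. Dusp6 went with Bnip3, Tcn2 and Bmpr2 (0.961, 0.922 and 0.909) and Nras with Fabp4, Enho and Ggta1 (0.900, 0.894 and 0.887).

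The genes closest to Hras were Arhgef5, Bcam and Spred2 (0.918, 0.900 and 0.900), and those of Spred1 were Bola1, 2010320M18Rik and Anxa3 (0.894, 0.887 and 0.876), all 6 highest in tumor epithelium. Spry2 was followed by Rab27b, Osbpl5 and Ift20 (0.925, 0.901 and 0.879) and Dusp4 by Mif4gd, Tmem108 and Zfp1 (0.856, 0.849 and 0.845). Among the members themselves the closest pairs were Spry1 with Etv4 (0.949, on the 41 UMIs of Etv4), Spry4 with Dusp6 (0.788) and Hras with Spred1 (0.736). Other pairs of feedback genes were weakly or inversely related, such as Spry2 with Dusp6 (0.132) and Dusp4 with Dusp6 (-0.285). The feedback genes thus did not follow 1 pattern over the classes.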

How the data were processed

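Libraries were made with the Chromium Single Cell 3′ v3 kit, and Cell Ranger (3.0.2, per the file header; build mm10 per the labels) gave the deposited whole-number UMI counts, which the authors pooled into 1 matrix of 58624795 UMIs without barcodes, so cell barcodes shared between libraries could not be counted. From these counts, cells with fewer than 200 genes, or beyond the 98th percentile of genes (2713) or mitochondrial share (13.4%), were left out, after the study's filters.

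A cell joined a class when UMIs of at least 2 of its markers were present, leading the next list by 2. No doublet caller was run, and doublets that passed this rule were not looked for; 12 airway-like cells were set aside. ATII-like cells held at least 10000 CPM of ATII markers, and ATI-like cells fewer, with at least 3 ATI markers. Reporter-high macrophages held at least 1000 CPM of the reporter and reporter-low ones under 500.

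UMIs were summed per class, with 95% exact Poisson, binomial and conditional intervals that cover counting error only. Ratios used genes with 20 or more UMIs in both classes together. The floor of a 0 is 3 UMIs. CPM and ratios were computed in Python 3.11.15 (numpy 2.4.6, scipy 1.17.1) and clusters in Seurat 5.3.0 (R 4.3.3), and the ratio step was tested on simulated data. Levels were compared between classes for 1 gene at a time. The text names the 9 members, from the 2 genes of largest ratio in each direction per list, and 3 genes per member of most similar pattern. Members and lists were chosen with earlier results of these data known, the gate after marker counts were seen, and the class pairs set side by side after their values were seen.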

Additional observations from a re-analysis of the deposited data

How the results depend on the processing

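Over 11 alternatives for tumor over non-tumor cells the count of members at least 2-fold higher ran from 4 (thinned) to 7. The 7 was against the median non-tumor class, where 8 had a value. After thinning, Etv4 (log2 ratio 4.97) fell under the 20 UMIs asked of a gene and was not counted. The count at least 2-fold lower was 0, except 1 with cells thinned to 1000 UMIs and 1 without alveolar macrophages, both Spry4. The latter setting was chosen after seeing the data. Against the median non-tumor class Spry4 reversed, at 5.25, and Dusp4 (2.72) and Dusp6 (1.58) passed 2-fold. For ATI-like over ATII-like cells 1 member was higher with sub-clusters (Dusp6), and 0 were lower without upper limits, after thinning and with sub-clusters. Etv4 was again too sparse to be counted after thinning. In macrophages 2 were higher after thinning (Spred1, Dusp6), and Dusp6 reversed to -0.047 with the reporter read after thinning. Of 208 single ratios over all alternatives, 187 stayed within their intervals, 19 moved outside them and 2 reversed. In tumor over non-tumor cells 13 moved and 1 reversed, and Spry2 at 3.74 after thinning was among those that moved. Hras (0.37) and Spred1 (-0.08) between sub-clusters also moved. A lead of 1 marker and centring on the median of all genes, also chosen after seeing the data, changed no count by over 1.5 times. No replicate could be left out, and no paired analysis was possible because the pooled matrix does not assign cells to mice. Depth limits Etv4, Spry4 and Dusp4 in the epithelial states. The causes were not tested.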
